A study of Homo sapiens with 9 samples.

Results

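The fatty acid elongases and desaturases are enzymes of the endoplasmic reticulum that lengthen acyl-CoA chains and put double bonds into them. The 10 genes examined were 6 elongases, *ELOVL1*, *ELOVL2*, *ELOVL4*, *ELOVL5*, *ELOVL6* and *ELOVL7*, and 4 desaturases, *SCD*, *FADS1*, *FADS2* and *FADS3*, of 27860 genes summed by symbol. The family was chosen by the values of *ELOVL2*, which differed between the hairpins in the same libraries, so *ELOVL2* is described without a test and the other 9 genes carry the question of whether its family moved with it.

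Gene expression was profiled by RNA-seq in DU145, an established human prostate cancer cell line, and all 9 libraries are labelled with a WT genotype. There were 3 libraries from cells with a scrambled shRNA (scramble), 3 with shRNA FZD6 #1 (shRNA1) and 3 with shRNA FZD6 #2 (shRNA2), the latter 6 together being the knockdown group. *FZD6* encodes a Frizzled receptor of Wnt signaling. Per the methods, scrambled and *FZD6* hairpins for constitutive expression were carried by the lentiviral vector pLKO.1, and the time from infection to harvest is not given in the sources used here. One cell line was used, and nothing says that the 3 libraries of a group came from separate cultures. The p-values therefore measure the spread between these libraries, which may be technical. In the knockdown comparison the 6 libraries are treated as a single group, so the spread there also holds any difference between the hairpins.

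Values are FPKM, in which read fragments are scaled to the length of a transcript and to the size of a library, summed over the RefSeq entries of a gene. They are scaled to the transcripts of a library, so fewer cells, or less RNA per cell, cannot be told apart from them. The Cufflinks bounds on FPKM implied about 32600000 to 40800000 fragments per library. The targeted gene was at 20.9, 20.5 and 20.04 FPKM in the scramble libraries, at 9.47, 10.2 and 9.80 with shRNA1 and at 7.84, 8.79 and 7.69 with shRNA2. *FZD6* was thus lower in every knockdown library, by 0.99 on the log2 scale with shRNA1 and by 1.24 with shRNA2 (limma adjusted p = 0.00033 and 4.51e-05), and between the hairpins the lower level was that of shRNA2, by 0.25 (limma adjusted p = 0.0273). All 6 epithelial markers were at or above 1 FPKM, led by *KRT18*. Among 4 hepatocyte markers *SERPINA1* alone reached that level. None of the stromal, endothelial or adipocyte markers did. Of 5 immune markers, *PTPRC* and *CD3E* were listed at 0 throughout and *CD68*, a lysosomal protein, was the only one whose mean over the 9 libraries reached 1 FPKM. *LYZ*, a lysozyme of myeloid and secretory cells, was at 1.14 FPKM in shRNA2 replicate 2, at 0.158 and 0.0183 in the other shRNA2 libraries and at 0 to 0.0264 in the remaining 6. The summed level of the immune list was 16.9 to 18.1 FPKM in scramble, 21.3 to 23.0 with shRNA1 and 25.1 to 26.8 with shRNA2, and its part in the results was not tested.

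The second shRNA2 library stood apart from its group. Its median absolute difference from the other shRNA2 libraries was 0.0982 and 0.102 on the log2 scale, against 0.044 to 0.0624 for every other pair of libraries of 1 group. Of the 9 genes tested, 4 passed in the knockdown comparison with and without this library, and 1 between the hairpins with and without it. With shRNA1 3 passed, and 5 without it, the added genes being *ELOVL1* (limma adjusted p = 0.0153) and *ELOVL6* (limma adjusted p = 0.0448). With shRNA2 4 passed, and 5 without it, the added gene being *ELOVL5*, whose log2 fold change was then −0.18 (limma adjusted p = 0.00306). Counts over all genes rose as well without this library. They went from 2578 of 12509 to 3231 of 12493 in the knockdown comparison and from 839 to 1160 between the hairpins. They went from 2357 to 3525 with shRNA1 and from 3335 to 4180 with shRNA2.

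Elongases catalyze the first and rate-limiting condensation of each elongation cycle, with different chain preferences. ELOVL1 acts on saturated and monounsaturated very long chains, ELOVL6 on the palmitate made by fatty acid synthase, and ELOVL2 and ELOVL5 on polyunsaturated chains. FADS2 and FADS1 insert double bonds in turn on the way to arachidonic and docosahexaenoic acid, and SCD makes oleate and palmitoleate from saturated chains. In prostate cancer these enzymes are known for supplying membrane and signaling lipids together with *de novo* fatty acid synthesis.

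The 250 bases before the annotated start are shown for 4 of the genes, because these genes stand for the patterns described next. *SCD* and *ELOVL5* fell with *FZD6* knockdown, *FADS1* fell with shRNA2, and the levels of *ELOVL2* differed between the hairpins. Sequences are from RefSeq on GRCh38.p14, read 5′ to 3′ on the strand of the gene, and capitals mark CCAAT or its reverse complement ATTGG. The window of *SCD* is chr10:100346983-100347232 (plus strand), that of *ELOVL5* is chr6:53348951-53349200 (minus strand), that of *FADS1* is chr11:61817004-61817253 (minus strand) and that of *ELOVL2* is chr6:11044306-11044555 (minus strand).
SCD: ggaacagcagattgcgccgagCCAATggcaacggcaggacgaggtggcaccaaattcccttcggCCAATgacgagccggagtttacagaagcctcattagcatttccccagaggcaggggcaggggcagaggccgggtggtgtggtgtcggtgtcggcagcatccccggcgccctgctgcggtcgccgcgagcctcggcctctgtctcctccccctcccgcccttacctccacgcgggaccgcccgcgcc
ELOVL5: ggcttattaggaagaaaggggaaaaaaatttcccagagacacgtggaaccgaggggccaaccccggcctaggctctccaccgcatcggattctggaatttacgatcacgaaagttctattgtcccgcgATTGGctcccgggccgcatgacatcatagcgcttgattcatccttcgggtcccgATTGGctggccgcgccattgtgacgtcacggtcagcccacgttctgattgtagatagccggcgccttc
FADS1: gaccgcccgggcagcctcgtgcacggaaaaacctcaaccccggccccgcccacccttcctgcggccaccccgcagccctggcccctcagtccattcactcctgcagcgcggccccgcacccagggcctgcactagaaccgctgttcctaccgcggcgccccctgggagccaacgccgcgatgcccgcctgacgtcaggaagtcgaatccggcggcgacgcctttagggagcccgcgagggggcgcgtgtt
ELOVL2: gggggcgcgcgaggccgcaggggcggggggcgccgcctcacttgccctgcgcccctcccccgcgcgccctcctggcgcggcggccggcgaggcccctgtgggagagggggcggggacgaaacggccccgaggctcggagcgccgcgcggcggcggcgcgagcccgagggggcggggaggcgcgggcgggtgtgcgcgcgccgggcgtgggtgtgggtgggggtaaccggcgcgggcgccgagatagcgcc

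CCAAT, the letters bound by the factor NF-Y, was present at 2 positions of the *SCD* window, in the plus orientation, and at 2 positions of the *ELOVL5* window, as ATTGG. It was not found in the windows of *FADS1* and *ELOVL2*. Searched on both strands, CCAAT was present in 32% of 35116 windows of this length, so it is a common word. All 10 genes had an entry, with 11 starts in all, and CCAAT was also present for *ELOVL1*, *ELOVL4* and *FADS3* and not for *ELOVL6*, *ELOVL7* and *FADS2*. GGGCGG, the letters of a GC box, was present in 42.6% of all windows and in those of every family member except *ELOVL5* and 1 of the 2 starts of *FADS2*. CACGTG, an E box, was present in 6.34% of all windows and in those of *ELOVL4* and *ELOVL5*. TCACCCCAC, the core of a sterol regulatory element, was present in 0.362% of all windows and in none of the 11. A match is a description of the letters and no match says only that they are not in this window. The entry that carried 89.0 to 92.2% of *FADS2* FPKM starts at 61828300 on chromosome 11, downstream of both annotated starts, so the *FADS2* windows do not lie at its start.

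Per length, *SCD* had the highest level of the family, and the 4 desaturases together exceeded the 6 elongases in every library. The order of the means over the 9 libraries was *SCD* (326 FPKM), *FADS2* (203), *ELOVL5* (119), *FADS1* (112), *ELOVL1* (66.2), *FADS3* (39.9), *ELOVL2* (8.86), *ELOVL6* (6.49), *ELOVL7* (2.92) and *ELOVL4* (1.05). Neighbors in this order did not overlap within a group, except for *ELOVL2* and *ELOVL6* with shRNA1, where 6.67 to 6.97 FPKM of the former overlapped 6.56 to 6.81 of the latter. *ELOVL5* and *FADS1* changed places: *ELOVL5* was higher in scramble (128 to 131 against 115 to 119 FPKM) and with shRNA2 (114 to 127 against 98.2 to 109), and *FADS1* was higher with shRNA1 (115 to 117 against 108 to 111).

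The family summed to 945 to 958 FPKM in scramble, 853 to 861 with shRNA1 and 829 to 863 with shRNA2, so every knockdown library was below every scramble library. The same held for the desaturase sum, at 734 to 747 FPKM in scramble, 656 to 666 with shRNA1 and 624 to 648 with shRNA2. The elongase sum was 210 to 211 FPKM in scramble, 192 to 196 with shRNA1 and 205 to 216 with shRNA2, which overlapped scramble. *SCD* made up 35.8 to 38.0% of the family sum, and *ELOVL5* made up 55.2 to 62.5% of the elongase sum. Precision was examined for *SCD*, *FADS1*, *FADS3*, *ELOVL2* and *ELOVL4*, and it did not follow the level throughout. The upper Cufflinks bound lay 0.719 to 0.841% above the FPKM of *SCD*. It lay 4.34 to 4.44% above that of *FADS1* and 3.67 to 4.34% above that of *FADS3*, though *FADS1* had the higher level. The bound lay 4.91 to 6.48% above *ELOVL2* and 15.8 to 21.5% above *ELOVL4*, which at about 1 FPKM was the least well measured of these genes.

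**Figure D1:**
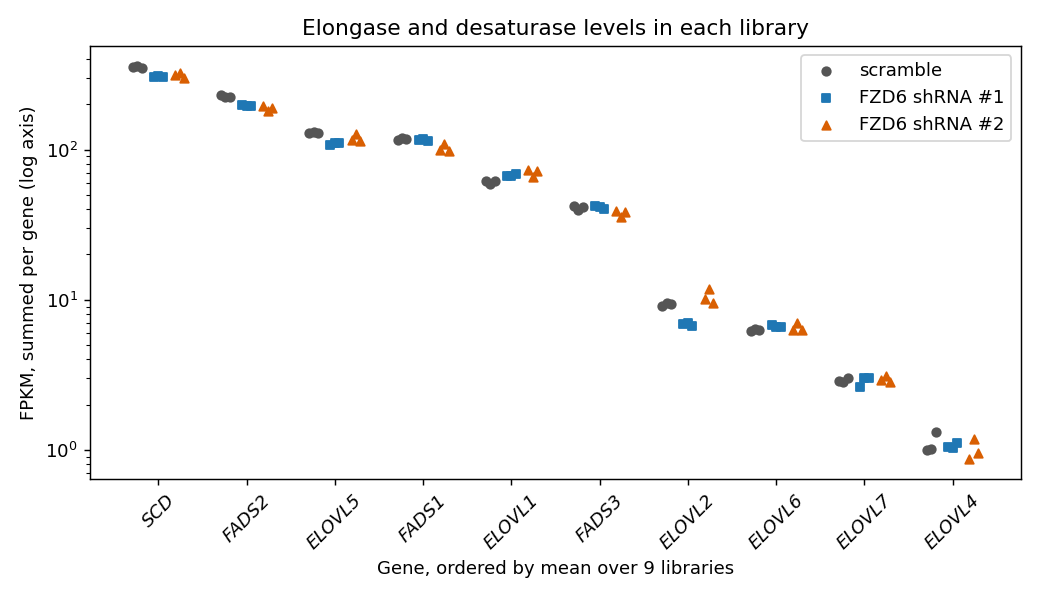
FPKM of each gene (log axis) in the 3 scramble (circles), 3 shRNA1 (squares) and 3 shRNA2 (triangles) libraries, 1 point per library, with genes ordered by their mean. Levels ran from 326 FPKM for *SCD* to 1.05 FPKM for *ELOVL4*, and the shRNA1 libraries of *ELOVL2* lie apart from its scramble and shRNA2 libraries, which overlap, while the groups of *ELOVL6*, *ELOVL7* and *ELOVL4* lie close together.

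To ask whether *FZD6* knockdown was accompanied by changes in the family, the 6 knockdown libraries were compared with the 3 scramble libraries. Of the 9 genes tested, 3 fell (*SCD*, *FADS2* and *ELOVL5*), 1 rose (*ELOVL1*) and 5 did not pass (limma adjusted p under 0.05). Across the 12509 genes tested, 20.6% passed, 7.1% lower and 13.5% higher, so that 4 of 9 and in particular 3 of 9 lower stand beside those backgrounds. The 9 genes had a median of −0.06 on the log2 scale, and all genes tested one of 0.03. Each change was small, from 0.17 to 0.23 in size on the log2 scale. None of the 9 genes reached the criteria of the methods (a 1.2-fold change at an unadjusted p under 0.01) when these were applied with limma, which 3.33% of all genes met, while 4 of the 9 had an unadjusted p under 0.05.

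*SCD*, the stearoyl-CoA desaturase that makes oleate, was at 357, 362 and 352 FPKM in the scramble libraries. It was at 306, 311 and 306 FPKM with shRNA1 and at 315, 323 and 299 FPKM with shRNA2. The knockdown libraries all lay below the scramble libraries, and the hairpins overlapped. *SCD* fell by 0.20 ± 0.03 (SE) on the log2 scale over both hairpins (limma adjusted p = 0.00371), by 0.22 ± 0.03 with shRNA1 (limma adjusted p = 0.00769) and by 0.19 ± 0.03 with shRNA2 (limma adjusted p = 0.00629). These calls held under all 20 alternatives for the knockdown comparison and all 21 for each hairpin that summed entries by gene. With RefSeq entries tested one by one *SCD* did not pass, although it has 1 entry. There the limma adjusted p was 0.0539 over both hairpins, 0.0903 with shRNA1 and 0.0677 with shRNA2. *SCD* has a long transcript, 5362 bases against a median of 2625, and log2 fold changes fell with length across 12295 genes (Spearman's rho = −0.43, across genes, which are not independent replicates). With the length trend of each library removed, *SCD* fell by 0.16 (limma adjusted p = 0.0046), and with quantile normalization it fell by 0.31 over both hairpins (limma adjusted p = 0.0034) and by 0.31 with shRNA2 (limma adjusted p = 0.00494).

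*FADS2*, the desaturase that starts the conversion of linoleic and alpha-linolenic acid, was at 232, 223 and 222 FPKM in the scramble libraries. It was at 197, 196 and 196 FPKM with shRNA1 and at 195, 179 and 189 FPKM with shRNA2. All knockdown libraries were lower, and those with shRNA2 lay just below those with shRNA1. *FADS2* fell by 0.23 ± 0.04 (SE) over both hairpins (limma adjusted p = 0.00482), by 0.20 ± 0.04 with shRNA1 (limma adjusted p = 0.0112) and by 0.27 ± 0.04 with shRNA2 (limma adjusted p = 0.00269). The calls held under every alternative that summed entries by gene, and the value with the length trend removed was −0.24 over both hairpins (limma adjusted p = 0.0103). Among the RefSeq entries of the family with a mean of at least 1 FPKM, tested one by one, the main entry of *FADS2* was the only one of the 9 tested genes to pass in the knockdown comparison, with a log2 fold change of −0.24 (limma adjusted p = 0.0389).

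*ELOVL5*, which elongates polyunsaturated chains downstream of FADS2, was at 130, 131 and 128 FPKM in the scramble libraries. It was at 108, 111 and 110 FPKM with shRNA1 and at 115, 127 and 114 FPKM with shRNA2. Every knockdown library was below scramble, with the second shRNA2 library nearest to it. *ELOVL5* fell by 0.19 ± 0.05 (SE) over both hairpins (limma adjusted p = 0.0282) and by 0.24 ± 0.04 with shRNA1 (limma adjusted p = 0.0107). With shRNA2 the log2 fold change was −0.13 ± 0.04 (limma adjusted p = 0.0561), which did not pass. The call over both hairpins was lost without any 1 of the scramble libraries, of shRNA1 replicates 2 and 3 or of shRNA2 replicate 3 (limma adjusted p between 0.051 and 0.102). It stood at 0.00277 (limma adjusted p) without shRNA2 replicate 2.

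*ELOVL1*, which builds the saturated very long chains used in sphingolipids, was at 62.1, 58.8 and 62.1 FPKM in the scramble libraries. It was at 66.8, 66.8 and 68.4 FPKM with shRNA1 and at 73.2, 65.7 and 72.0 FPKM with shRNA2. It was the only one of the 9 genes called higher, and all knockdown libraries lay above scramble. *ELOVL1* rose by 0.17 ± 0.04 (SE) over both hairpins (limma adjusted p = 0.0227) and by 0.20 ± 0.04 with shRNA2 (limma adjusted p = 0.0155), and its log2 fold change with shRNA1 was 0.14 ± 0.04 (limma adjusted p = 0.0649). Its transcript length was taken as 1477 bases. With the length trend removed, the value over both hairpins was 0.09 (limma adjusted p = 0.154), with quantile normalization it was 0.12 (limma adjusted p = 0.0764), and without 1 of the scramble libraries it was 0.15 to 0.18 (limma adjusted p between 0.0549 and 0.102), so that the call was lost in each. With shRNA2 alone the call was lost without scramble replicate 2 (limma adjusted p = 0.0552), without shRNA2 replicate 3 (limma adjusted p = 0.0512) and with only the 6 libraries compared (limma adjusted p = 0.0533). Its leading entry took 25.6 to 61.4% of the FPKM of the gene depending on the library, so the split among its 5 entries was not stable and only the sum is used. The sum includes a non-coding entry listed at 7.68 to 28.2 FPKM, so it is not a value of the coding entries alone.

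**Figure D2:**
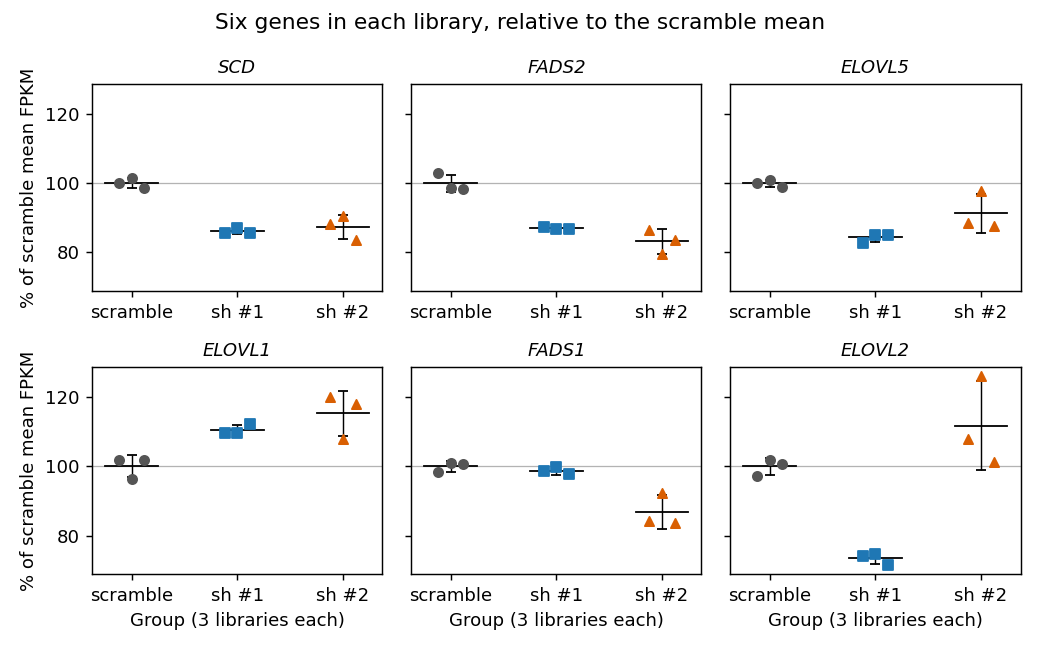
FPKM of 6 genes in each library as a percentage of the mean of the 3 scramble libraries. Points are libraries, horizontal bars group means and error bars SD (n = 3). *SCD*, *FADS2* and *ELOVL5* lie below the scramble libraries with both hairpins and *ELOVL1* above, *FADS1* lies below scramble with shRNA2 and overlaps it with shRNA1, and *ELOVL2* lies below scramble with shRNA1 and overlaps it with shRNA2.

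Each hairpin was then compared with scramble on its own. These 2 comparisons share the 3 scramble libraries. With shRNA1, 3 of the 9 genes passed, all lower (*SCD*, *FADS2* and *ELOVL5*), where 18.8% of all genes passed, 7.19% lower and 11.7% higher. With shRNA2, 4 of the 9 passed, of which 3 were lower (*SCD*, *FADS2* and *FADS1*) and 1 higher (*ELOVL1*), where 26.7% of all genes passed, 11.4% lower and 15.3% higher. Medians of the 9 genes were −0.02 with shRNA1 and −0.13 with shRNA2 on the log2 scale, beside 0.03 for all genes in both.

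*ELOVL2*, which elongates polyunsaturated chains toward docosahexaenoic acid, chose the family, and its values are a description. It was at 9.07, 9.50 and 9.40 FPKM in the scramble libraries, 6.92, 6.97 and 6.67 FPKM with shRNA1 and 10.1, 11.8 and 9.43 FPKM with shRNA2. The shRNA1 libraries lay below all others, whereas the lowest shRNA2 library lay within the scramble range. The log2 fold change was −0.40 with shRNA1, 0.14 with shRNA2 and 0.53 between shRNA2 and shRNA1, and the last ranged from 0.45 to 0.60 over 21 alternatives, with the lowest value found without the second shRNA2 library. It has 1 RefSeq entry, NM_017770, at chr6:10980760-11044305 (hg38), so no split among entries enters its value.

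Whether the family shared this difference was asked by comparing shRNA2 with shRNA1. Of the 9 genes tested, 1 passed, *FADS1*, and it was lower with shRNA2, opposite to *ELOVL2*. Over all genes, 6.71% passed and 4.79% were lower. None of the 9 passed in the direction of *ELOVL2*, where 240 of all 12509 genes did, a share at which so small a set may well hold none. The nearest was *ELOVL5*, whose log2 difference was 0.11 with a 95% interval of 0.01 to 0.21 (limma adjusted p = 0.178). All shRNA2 libraries of *ELOVL5* (114 to 127 FPKM) lay above all of its shRNA1 libraries (108 to 111 FPKM), as those of *ELOVL2* did. The intervals of *ELOVL1* (−0.04 to 0.16), *ELOVL4* (−0.21 to 0.13), *ELOVL6* (−0.12 to 0.07), *ELOVL7* (−0.09 to 0.14), *SCD* (−0.05 to 0.10) and *FADS2* (−0.15 to 0.02) included 0.

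*FADS1*, the desaturase of the last step to arachidonic acid, was at 115, 119 and 118 FPKM in the scramble libraries. It was at 116, 117 and 115 FPKM with shRNA1 and at 98.9, 109 and 98.2 FPKM with shRNA2. The scramble and shRNA1 libraries overlapped, and the 3 shRNA2 libraries lay below both. *FADS1* fell by 0.21 ± 0.04 (SE) with shRNA2 (limma adjusted p = 0.0105), had a log2 fold change of −0.02 ± 0.04 with shRNA1 (limma adjusted p = 0.786) and was lower by 0.19 ± 0.04 when shRNA2 was set against shRNA1 (limma adjusted p = 0.0373). The fall with shRNA2 passed in all 21 alternatives that summed entries by gene, but not with RefSeq entries tested one by one (limma adjusted p = 0.0798), although *FADS1* has 1 entry. The difference between the hairpins passed in 11 of the 21 and lost its call without any 1 library other than shRNA2 replicate 2 (limma adjusted p between 0.0601 and 0.124), while without that library it was −0.23 (limma adjusted p = 0.00359). The direction held throughout.

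*FADS1* (chr11:61799627-61817003, minus strand), *FADS2* (chr11:61816203-61867354, plus strand) and *FADS3* (chr11:61873526-61892224) are neighbors on hg38, and the first 2 overlap at their 5′ ends on opposite strands. The library kit kept the strand, but whether it was used in the estimates is not given in the sources used here, so reads in the overlap may not be told apart. The main entry of *FADS2* starts outside the overlap. *FADS3*, which acts on sphingoid bases, was at 42.1, 39.6 and 41.6 FPKM in scramble, 42.1, 41.3 and 39.9 with shRNA1 and 39.0, 35.7 and 38.1 with shRNA2. Its shRNA2 libraries lay below all others, as those of *FADS1* did. The log2 fold change with shRNA2 was −0.13 ± 0.04 (SE, limma adjusted p = 0.0617) and the log2 difference from shRNA1 was −0.13 ± 0.04 (limma adjusted p = 0.126), neither of which passed. With the length trend removed *FADS3* was lower with shRNA2 by 0.19 (limma adjusted p = 0.0115), one of 6 alternatives in 21 under which it passed.

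**Figure D3:**
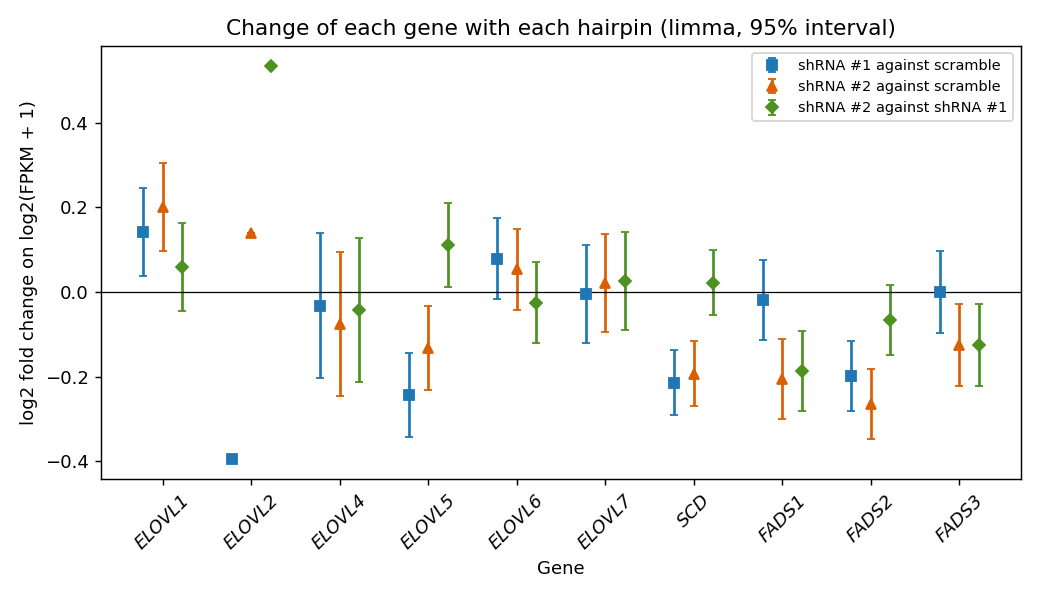
Log2 fold change on log2(FPKM + 1) of each gene with shRNA1 against scramble (squares), shRNA2 against scramble (triangles) and shRNA2 against shRNA1 (diamonds), with 95% intervals from limma except for *ELOVL2*, which is shown as a description. The diamond of *ELOVL2* is at 0.53 and those of the other genes lie between −0.19 and 0.11.

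The 3 remaining elongases did not pass in any comparison. *ELOVL6*, which takes palmitate to stearate, was at 6.14, 6.35 and 6.28 FPKM in scramble, 6.81, 6.62 and 6.56 with shRNA1 and 6.32, 7.03 and 6.26 with shRNA2. Its shRNA1 libraries lay above scramble, and its log2 fold change over both hairpins was 0.07 with a 95% interval of −0.02 to 0.15 (limma adjusted p = 0.226). *ELOVL7*, an elongase of saturated long chains, was at 2.85, 2.83 and 3.02 FPKM in scramble, 2.62, 3.03 and 3.02 with shRNA1 and 2.92, 3.11 and 2.84 with shRNA2. Its groups overlapped throughout, with a log2 fold change of 0.01 and an interval of −0.09 to 0.10. *ELOVL4*, which makes the ultra-long chains of retina and skin, was at 0.994, 1.01 and 1.32 FPKM in scramble, 1.04, 1.02 and 1.10 with shRNA1 and 0.867, 1.18 and 0.955 with shRNA2. Its groups overlapped as well, with a log2 fold change of −0.05 and an interval of −0.19 to 0.09, at a level where a pseudocount of 1 damps differences. The split among entries was unstable for *ELOVL6*, whose leading entry took 35.5 to 77.6% of the gene, and for *ELOVL7*, whose leading entry took 0.24 to 97.3%.

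Of the family outside these 10 genes, *SCD5*, a second stearoyl-CoA desaturase, was the only one whose mean reached 1 FPKM. Its level was 4.22, 4.47 and 4.11 FPKM in scramble, 4.37, 3.75 and 3.82 with shRNA1 and 3.15, 2.83 and 3.12 with shRNA2. The shRNA2 libraries lay below all others, and it fell by 0.38 ± 0.06 (SE) with shRNA2 (limma adjusted p = 0.0035) and lay below its shRNA1 level by 0.30 ± 0.06 (limma adjusted p = 0.0209). *ELOVL3* was at 0.716 to 1.03 FPKM in all libraries and *FADS6* at 0 to 0.013.

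The other genes of the pathway were taken from 8 lists with 88 genes, of which 76 were tested. In the knockdown comparison 8 of the 76 were lower and 3 higher, beside 7.1% and 13.5% of all genes, and the counts for each list below stand beside the same shares. None of the 4 tested partners of the elongases in the elongation cycle and none of the 5 electron donors of the desaturases passed. Of 9 genes of fatty acid synthesis 2 were lower, and they hold the largest changes of any list gene. *FASN*, the fatty acid synthase that makes palmitate, had a mean of 89.7 ± 1.94 FPKM (SD, n = 3) in scramble, 57.8 ± 0.739 with shRNA1 and 50.9 ± 1.65 with shRNA2. It fell by 0.71 ± 0.06 (SE) over both hairpins (limma adjusted p = 0.000685), and by 0.60 with the length trend removed (limma adjusted p = 0.00277). *ACACA*, the acetyl-CoA carboxylase that supplies malonyl-CoA to synthesis and elongation, had a mean of 17.8 ± 0.70 FPKM in scramble, 13.7 ± 0.287 with shRNA1 and 12.4 ± 1.24 with shRNA2. It fell by 0.42 ± 0.07 (limma adjusted p = 0.00528), and by 0.29 with the length trend removed (limma adjusted p = 0.0122).

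Of 18 lipogenic regulators, 5 were lower and 1 higher, where 7.1% and 13.5% of all genes were. *SREBF2*, a sterol-responsive activator, fell by 0.15 ± 0.03 (SE, limma adjusted p = 0.0105), *RXRA*, the partner of PPAR and LXR receptors, by 0.20 ± 0.03 (limma adjusted p = 0.00454) and *PPARD*, a fatty acid sensor, by 0.19 ± 0.04 (limma adjusted p = 0.0141). *PPARG* rose by 0.16 ± 0.05 (limma adjusted p = 0.0479). With the length trend removed the values were −0.11 for *SREBF2* (limma adjusted p = 0.0668) and 0.09 for *PPARG* (limma adjusted p = 0.215). Those of *RXRA* and *PPARD* were then −0.27 (limma adjusted p = 0.00337) and −0.19 (limma adjusted p = 0.0325), so both kept their call. *FABP5*, a fatty acid carrier and the 1 gene of 10 called among acyl-CoA activation, rose by 0.26 ± 0.03 (limma adjusted p = 0.0028), and by 0.15 with the length trend removed (limma adjusted p = 0.0363).

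Of 14 users of long acyl chains, *AGPAT3* was lower in the knockdown comparison, by 0.17 ± 0.04 (SE, limma adjusted p = 0.0179), and stood at −0.12 (limma adjusted p = 0.0994) with the length trend removed. The acyltransferases *LPCAT1* and *LPCAT3*, which place chains into phosphatidylcholine, were below their shRNA1 level with shRNA2, by 0.24 ± 0.03 (limma adjusted p = 0.00237) and 0.23 ± 0.04 (limma adjusted p = 0.0133). *FASN* was likewise lower by 0.18 ± 0.03 (limma adjusted p = 0.0163). With *SCD5* these are the 4 list genes, of 76 tested, that passed in the direction of *FADS1*, where 4.79% of all genes did. Of the same 76, 2 passed in the direction of *ELOVL2*, where 240 of all 12509 genes did. *ME1*, which supplies NADPH, was higher with shRNA2 than with shRNA1 by 0.30 ± 0.06 (limma adjusted p = 0.021) and *SLC27A3*, an acyl-CoA synthetase, by 0.22 ± 0.05 (limma adjusted p = 0.0343). *ECI2*, a peroxisomal enzyme of unsaturated chain oxidation and the 1 of 15 oxidation genes called, rose by 0.15 ± 0.03 over both hairpins (limma adjusted p = 0.0155), and stood at 0.06 (limma adjusted p = 0.266) with the length trend removed.

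**Figure D4:**
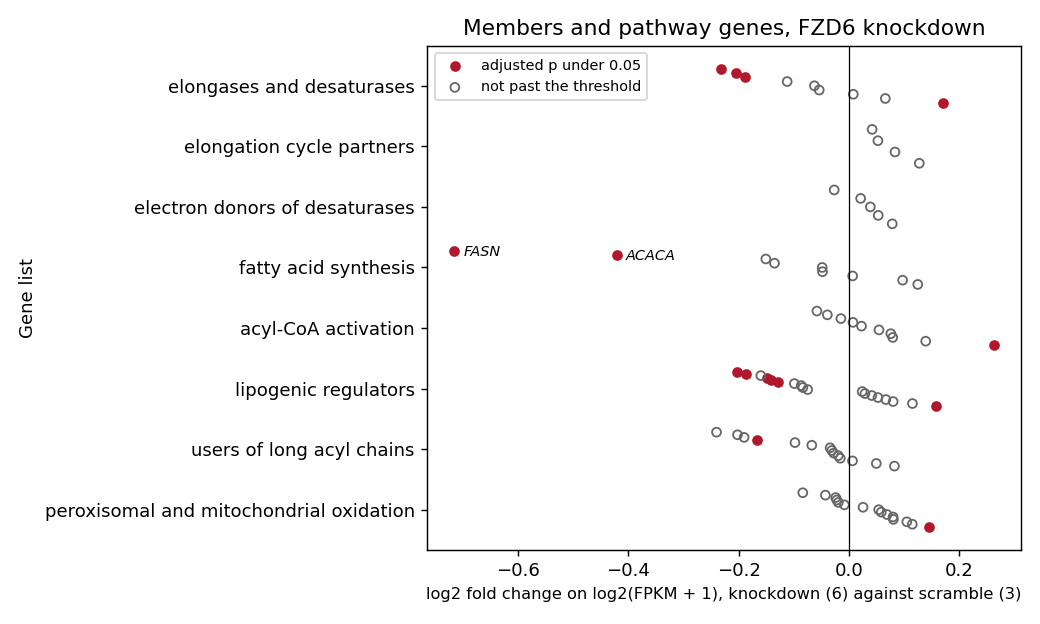
Log2 fold change of the 6 knockdown against the 3 scramble libraries for the family (without *ELOVL2*) and 7 pathway lists, 1 point per tested gene. Filled points passed limma's adjusted p of 0.05, and *FASN* and *ACACA* lie farthest from 0.

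Genes with the most similar pattern over the 9 libraries were named by Pearson's r on log2(FPKM + 1), as a description. All of these values share the same libraries and groups. For *ELOVL2* they were *METTL16* (r = 0.986), *FERMT2* (0.980), *FBXO45* (0.978), *TNRC6A* (0.977) and *LRCH1* (0.977), none of them a gene of the lists. Means of *METTL16* were 10.8 FPKM in scramble, 8.81 with shRNA1 and 11.2 with shRNA2, the order of *ELOVL2*. Within the family r with *ELOVL2* ran from −0.66 for *FADS3* to 0.70 for *ELOVL5*. For *SCD* they included *SUPT6H* (0.997), *EIF4G1* (0.997), *DYNC1H1* (0.997) and *HUWE1* (0.995).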

How the data were processed

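RNA from 9 DU145 libraries was prepared with a stranded mRNA kit. Per the methods, the authors mapped reads with STAR and computed FPKM with Cufflinks; versions are not given in the sources used here. The methods name the mm10 genome, whereas the submitters' processing notes name hg38, and loci in the deposited tables are human. The deposited FPKM were per RefSeq transcript (83497 entries per library), and were joined by accession and locus because the row order differed.

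Accessions were matched to RefSeq symbols of GRCh38.p14 (72645 of 73240 matched) and summed by gene. Genes whose mean reached 1 FPKM were tested by limma 3.58.1 in R 4.3.3 on log2(FPKM + 1), with Benjamini-Hochberg adjustment over 12509 genes and a threshold of 0.05. Fold changes are on this scale, which understates those of low genes. The knockdown comparison used 2 groups and each hairpin a model of 3. Transcript lengths were from GENCODE v29 (lowess span 0.3). All p-values are two-sided. The methods used a t-test for their criteria, and here its place was taken by limma.

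The family, the lists and the tests were chosen with earlier results of these data known. Genes named were all 10 members, the target, at most 4 called genes per list by size of change, and the 5 most similar to *ELOVL2* and to *SCD*, of which 1 is not reported here. Alternatives were other pseudocounts (0.1 and 0.01), no filter or one of 5 FPKM, centring, quantile normalization, removal of the length trend, a replicate block, trend and robust limma, only the 6 libraries compared, primary chromosomes only, single RefSeq entries and leaving out each library. The scripts were tested on simulated data. Tables were handled with Python 3.11.15 and pandas 2.3.3.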

Additional observations from a re-analysis of the deposited data

Results flagged for a closer look

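The effect of the hairpins on *FADS1* differed between shRNA1 and shRNA2, by a test of the difference itself: the log2 difference of shRNA2 from shRNA1 was −0.19 (limma adjusted p = 0.0373, and between 0.00359 and 0.124 over the 21 alternatives that summed entries by gene), lower in 3 of 3 shRNA2 libraries. No member had a single knockdown library far from the other 5 by Dixon's test, in the 9 genes tested. The nearest to the limit of 0.625 was *ELOVL5* in shRNA2 replicate 2, with a ratio of gap to range of 0.613. The test pooled the libraries of both hairpins, and a difference between hairpins widens the range. It therefore cannot exclude a library that stands apart within its own group.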

How the results depend on the processing

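The falls of *SCD* and *FADS2* with both hairpins together and with each kept their direction and their call under every alternative that summed entries by gene. With RefSeq entries tested one by one, 216 of 19780 entries passed in the knockdown comparison, 82 with shRNA1, 544 with shRNA2 and 93 between the hairpins. In these tests 1 member had an entry called over both hairpins, 0 with shRNA1, 1 with shRNA2 and 0 between the hairpins. By the criteria of the methods 1 member had an entry that passed. By these criteria 2 members passed with quantile normalization, where 406 of 12509 genes did. Between the hairpins the count was 0 with quantile normalization and with only the 6 libraries compared. Leaving out each library gave 2 to 4 members over both hairpins, 3 to 5 with shRNA1, 3 to 5 with shRNA2 and 0 to 1 between the hairpins; the 5 with shRNA1 came without shRNA2 replicate 2. Counts over all genes ranged from 926 to 3231 in the knockdown comparison (2578 as reported), 883 to 3525 with shRNA1 (2357), 2053 to 4180 with shRNA2 (3335) and 323 to 1183 between the hairpins (839).

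No sign of pairing by replicate number was seen. Deviations of same-numbered libraries correlated at −0.07 to 0.11, and those of differently numbered libraries at −0.12 to 0.18. With 3 libraries per group this check cannot exclude a pairing. With the replicate block 4 members were called over both hairpins, 4 with shRNA1, 5 with shRNA2 and 1 between the hairpins. Of all 12509 genes, 2377, 2525, 3558 and 802 passed in the same order.

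Signs turned only for values that did not pass in either setting. With the length trend removed, with or without the block, the log2 fold change with shRNA1 was 0.000366 for *ELOVL7*, 0.0020 for *FADS1* and −0.073 for *FADS3*. With quantile normalization it was 0.0053 for *ELOVL7* and −0.049 for *FADS3*, and with centring −0.0083 for *FADS3*. Leaving out each library gave, over both hairpins, −0.092 to 0.016 for *ELOVL4* and −0.0059 to 0.031 for *ELOVL7*. With shRNA1 it gave −0.070 to 0.038 for *ELOVL4*, −0.031 to 0.046 for *ELOVL7* and −0.026 to 0.021 for *FADS3*, and with shRNA2 −0.0072 to 0.043 for *ELOVL7*. Between the hairpins it gave −0.11 to 0.0048 for *ELOVL4*, −0.072 to 0.000686 for *ELOVL6*, −0.025 to 0.051 for *ELOVL7* and −0.0035 to 0.053 for *SCD*. The cause was not tested. The 3 libraries per group limit all calls of this size.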
